A study of Mus musculus with 20 samples.

Results

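The genes described here are 10 genes of osteoblast differentiation and bone mineralisation, chosen by name: *Runx2*, *Sp7*, *Dlx5*, *Alpl*, *Phospho1*, *Ank*, *Ibsp*, *Spp1*, *Bglap* and *Bglap2*. They are 10 of the 54532 genes counted in mouse temporomandibular joint (TMJ) tissue, and all 10 were among the 15984 genes expressed highly enough to be tested. RNA-seq was carried out on TMJ condylar heads, the rounded ends of the lower jaw, which were taken with some of the subchondral bone, so cartilage, bone and adhering tissue entered each library together. All animals carried *Loxl2* fl/fl alleles, in which the gene is flanked by loxP sites, and Acan-CreERT2, a tamoxifen-dependent Cre recombinase driven by the aggrecan promoter, which is active in chondrocytes and not in every cell of the condyle. The product of *Loxl2*, a lysyl oxidase, crosslinks collagen fibres. Mice aged 6 months received vehicle (Control, 8 libraries) or tamoxifen (LOXL2_KO, 12 libraries) on 5 days and then monthly, and the joints were collected after 4 months. Both sexes were in equal number in each group, but no label ties a sex or a batch to a library. Tamoxifen and the deletion cannot be told apart in this design.

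Osteoblasts are the bone-forming cells. They arise from mesenchymal precursors under the transcription factors *Runx2* and *Sp7* (osterix), lay down a matrix of type I collagen, and then mineralise it with hydroxyapatite. Mineral forms where phosphate is released and pyrophosphate, its inhibitor, is removed, and the acidic glycoproteins and osteocalcin of the mineralised matrix mark late osteoblasts. In the condyle, calcified cartilage and subchondral bone lie directly under the fibrocartilage, and hypertrophic chondrocytes use several of the same genes.

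Levels are given as CPM, counts scaled to a common library size. *Loxl2* itself, the targeted gene, was not lower in the libraries labelled LOXL2_KO. It lay at 16, 70.3 and 103 CPM (lowest, median, highest) in Control and at 28.8, 110 and 126 CPM in LOXL2_KO, with a log2 fold change of 0.64 ± 0.28 (SE) and an adjusted p of 0.101, or 0.0313 without LOXL2_KO replicate 12. Each library holds RNA of all cells of the condyle, and Acan-CreERT2 is not active in all of them. The part of this in the *Loxl2* counts was not tested. In 11 of the 12 LOXL2_KO libraries *Loxl2* was above the Control median. The counts do not show the deletion and cannot check it or the labels. The groups below are the libraries labelled Control and LOXL2_KO. Library totals ranged from 11153820 to 27045668 counts, and each member had at least 58 counts in every library, so none was near the detection limit.

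The sequence before the transcription start was taken from RefSeq (build GRCm38.p6) for 7 of the 10 members, the exceptions being *Sp7*, *Dlx5* and *Bglap2*. Osteocalcin (*Bglap*) differed most between the groups, *Ibsp* and *Spp1* had smaller differences, and *Ank* was nearly level throughout. *Bglap*, *Ibsp* and *Spp1* all varied widely, the highest library being 61.3, 52.2 and 28.0 times the lowest. The sequences of these 4 members are shown, picked by their values in these data. Each is 250 bases long, runs 5′ to 3′ in the direction of transcription and ends at the base before the start. Capitals mark the RUNX core ACCACA, the TATA box written TATAAA, the GC box written GGGCGG and the homeodomain core TAATTA, each searched on both strands with overlapping matches kept.
*Bglap*, chr3:88384467-88384716, minus strand: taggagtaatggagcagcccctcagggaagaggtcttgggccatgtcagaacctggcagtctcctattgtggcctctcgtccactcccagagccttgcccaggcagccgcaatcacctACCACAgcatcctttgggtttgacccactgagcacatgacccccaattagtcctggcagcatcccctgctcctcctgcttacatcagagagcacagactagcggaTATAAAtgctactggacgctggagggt
*Ibsp*, chr5:104299037-104299286, plus strand: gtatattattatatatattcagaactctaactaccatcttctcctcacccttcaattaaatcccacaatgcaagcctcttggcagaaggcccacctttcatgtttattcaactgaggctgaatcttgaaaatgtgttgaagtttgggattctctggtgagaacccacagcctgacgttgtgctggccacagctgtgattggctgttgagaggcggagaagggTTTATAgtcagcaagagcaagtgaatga
*Spp1*, chr5:104434861-104435110, plus strand: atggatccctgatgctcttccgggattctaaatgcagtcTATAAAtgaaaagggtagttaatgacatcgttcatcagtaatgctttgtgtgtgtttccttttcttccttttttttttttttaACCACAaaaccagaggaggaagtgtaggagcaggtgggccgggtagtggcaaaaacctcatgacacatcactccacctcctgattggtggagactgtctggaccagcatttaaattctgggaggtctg
*Ank*, chr15:27466427-27466676, plus strand: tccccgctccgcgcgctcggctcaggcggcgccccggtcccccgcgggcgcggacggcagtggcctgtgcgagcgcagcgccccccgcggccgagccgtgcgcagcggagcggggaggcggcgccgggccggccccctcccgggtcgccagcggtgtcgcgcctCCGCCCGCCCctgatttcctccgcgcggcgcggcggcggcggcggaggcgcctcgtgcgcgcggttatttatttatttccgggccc

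The *Bglap* sequence held TATAAA beginning 27 bases before the start and ACCACA beginning 132 bases before it. The *Ibsp* sequence held a TATA match on the opposite strand, 28 bases before the start, and no RUNX core. The *Spp1* sequence held ACCACA 128 bases and TATAAA 211 bases before the start. The *Ank* sequence held neither and instead had 2 overlapping GC boxes on the opposite strand. For comparison, ACCACA was in 14.0%, TATAAA in 12.4%, GGGCGG in 32.7% and TAATTA in 4.84% of 32851 RefSeq windows of the same length. The windows differed in base composition. The *Ank* window was 81.2% G and C with 49 CpG dinucleotides and that of *Phospho1* 75.6% with 34, whereas *Bglap* had 56.4% with 4, *Runx2* 44.8% with 0, and *Ibsp* and *Spp1* 43.6% each with 2 and 3. Over all windows the medians were 52.4% and 6. *Alpl* has 2 starts in the table, with 68.4% and 56.0% G and C, and *Spp1* has a second start whose window was 35.6% G and C and held the only TAATTA match among the members. These matches describe letters in the windows and not binding.

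Of the 10 members, 4 rose in LOXL2_KO and none fell: *Sp7*, *Dlx5*, *Bglap* and *Bglap2*. No member fell at an unadjusted p under 0.05 either (0 with edgeR, 0 with DESeq2), while 7 were higher at that level, which 5910 of the 15984 tested genes (37.0%) passed in either direction. Over all tested genes 23.0% passed the same threshold (edgeR, adjusted p under 0.05), 12.0% of all tested genes being higher in LOXL2_KO, and 1755 of the 15984 were lower. The median log2 fold change of the 10 members was 0.94, against -0.02 over all tested genes. The members and gene lists were chosen with earlier results of these data known, so this contrast is a description and not a test. In tissue of mixed cell types, more cells of a kind and more RNA per cell cannot be told apart. For no member did the CPM ranges of the groups separate, a pattern found in 0.300% of tested genes.

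**Figure D1:**
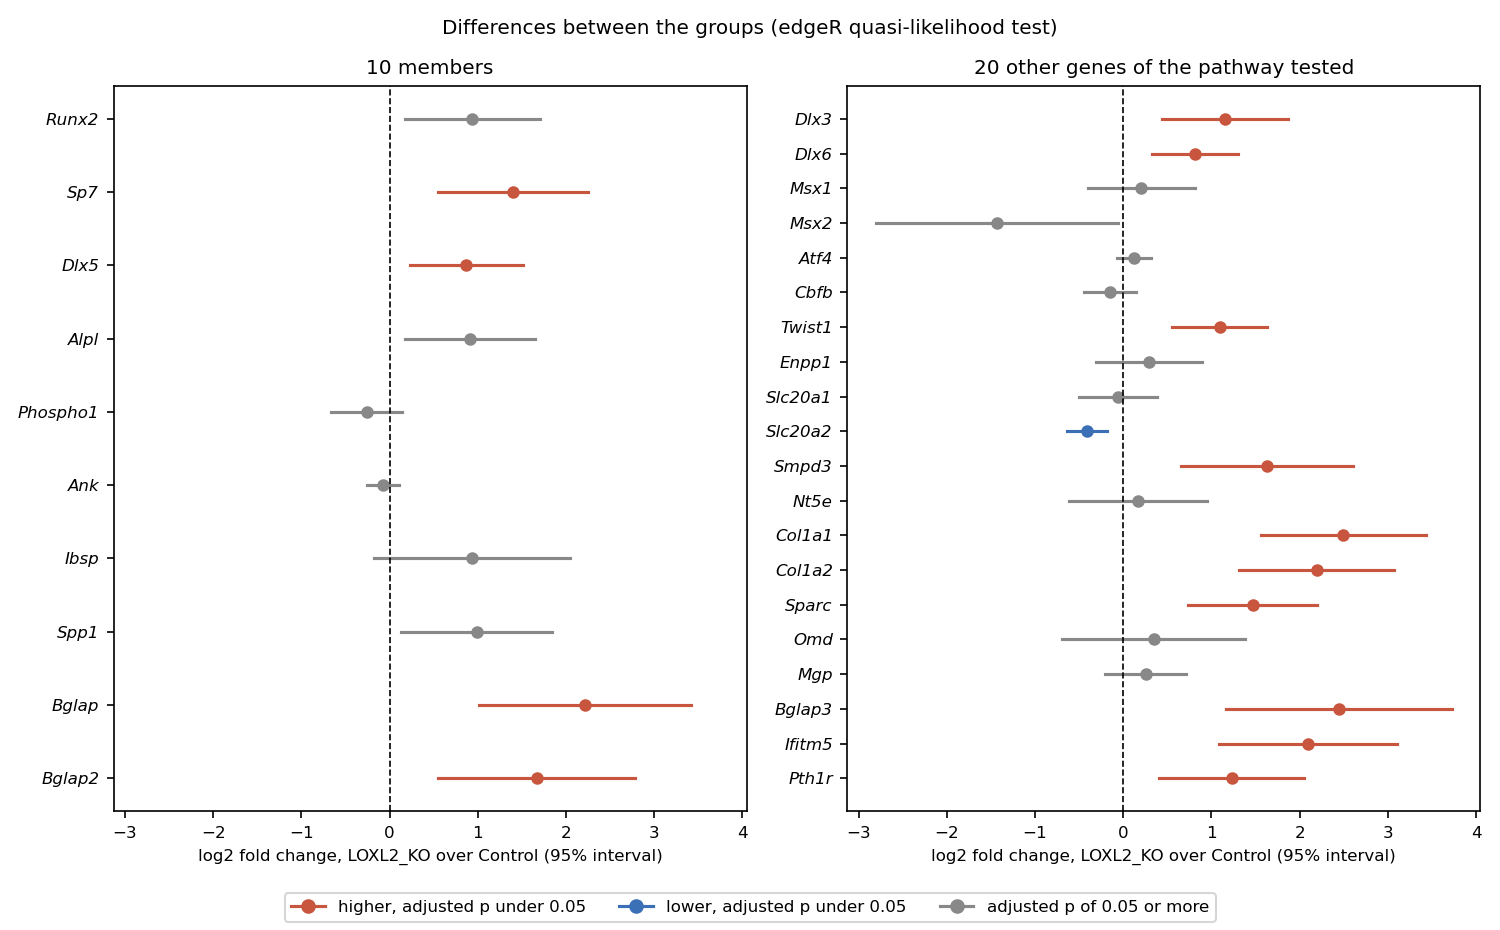
Log2 fold change of LOXL2_KO over Control (x axis) with its 95% interval for the 10 members (left) and the 20 tested genes of the wider pathway (right). Red marks genes that rose, blue the 1 that fell, *Slc20a2*, and grey those that did not pass. *Ank* has the narrowest interval of the members, from -0.25 to 0.11, and *Bglap* the highest value, 2.22.

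Among the transcription factors, *Sp7* and *Dlx5* rose and *Runx2* did not pass the threshold. *Runx2* (chr17:44495987-44814797, minus strand, GRCm38), which commits mesenchymal cells to the osteoblast lineage, lay at 12.2, 53.3 and 69.6 CPM (lowest, median, highest) in Control. In LOXL2_KO it lay at 21.3, 103 and 174 CPM. In LOXL2_KO 8 libraries exceeded every Control library, and the lower ends of the groups overlapped. The log2 fold change was 0.94 ± 0.37 (SE), 1.92-fold with a 95% interval from 1.13 to 3.25, and the adjusted p was 0.0683. It passed with the DESeq2 Wald test (adjusted p = 0.0308), without LOXL2_KO replicate 4 (0.0493) and without LOXL2_KO replicate 5 (0.0280). The antisense gene *Runx2os1* overlaps its exons, and whether counting used strand was not given in the sources used here.

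*Sp7* (chr15:102356606-102367182, minus strand), which acts downstream of *Runx2* and is required for osteoblasts to form, lay at 14.4, 58.3 and 114 CPM in Control and at 21.6, 163 and 279 CPM in LOXL2_KO. In 8 of the 12 LOXL2_KO libraries it exceeded the highest Control library. It rose by a log2 fold change of 1.40 ± 0.41 (SE; 2.64-fold, 95% interval 1.46 to 4.76; adjusted p = 0.0185). The call held when any 1 library was left out (adjusted p from 0.00491 to 0.0399), and was lost without Control replicates 6 and 8 together (log2 fold change 1.09, adjusted p = 0.0779).

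*Dlx5* (chr6:6877805-6882085, minus strand), a homeodomain factor of the skeletal lineages, lay at 5.46, 23.2 and 31.5 CPM in Control and at 12.4, 37.7 and 67.5 CPM in LOXL2_KO. Here 9 of the 12 LOXL2_KO libraries were above the highest Control library. The log2 fold change was 0.87 ± 0.31 (SE; 1.83-fold, 95% interval 1.17 to 2.85), with an adjusted p of 0.0454 that lay close to the threshold. It passed without Control replicate 2, 5 or 7 or LOXL2_KO replicate 4, 5 or 12, and did not pass when any of the other 14 libraries was left out, with an adjusted p of up to 0.0800 without Control replicate 8.

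The enzymes and the transporter that set the balance of phosphate and pyrophosphate gave no call. *Alpl* (chr4:137741733-137796384, minus strand), tissue-nonspecific alkaline phosphatase, which hydrolyses pyrophosphate, lay at 77.5, 248 and 447 CPM in Control and at 99.3, 490 and 842 CPM in LOXL2_KO. In LOXL2_KO 7 libraries lay above all Control libraries, yet the lowest were within the Control range. Its log2 fold change was 0.91 ± 0.36 (SE; 1.88-fold, 95% interval 1.13 to 3.13; adjusted p = 0.0677). It passed with DESeq2 (adjusted p = 0.0300), without Control replicate 5 (0.0307) and without LOXL2_KO replicate 5 (0.0249).

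*Phospho1* (chr11:95824499-95832140, plus strand), a phosphatase that releases phosphate inside matrix vesicles, was the least abundant member per length of exon. It lay at 6.02, 8.33 and 13.8 CPM in Control and at 4.17, 7.18 and 11.8 CPM in LOXL2_KO. No LOXL2_KO library exceeded the highest Control library, and 3 lay below the lowest. The log2 fold change was -0.26 ± 0.19 (SE; 95% interval -0.66 to 0.15; adjusted p = 0.349). Control replicate 8, which was the lowest of all libraries for *Alpl*, *Ibsp*, *Spp1* and *Bglap*, had the highest *Phospho1*. Exons of *Zfp652* on the same strand and of *Abi3* on the opposite strand overlap *Phospho1*, and how much of its 58 to 250 counts per library belong to them was not tested.

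*Ank* (chr15:27466677-27594909, plus strand) encodes the membrane protein that carries pyrophosphate out of cells and so restrains mineral. Its level lay at 279, 367 and 404 CPM in Control and at 280, 345 and 415 CPM in LOXL2_KO. The highest library was 1.49 times the lowest over all 20, while the same ratio was 52.2 for *Ibsp* and 61.3 for *Bglap*. The groups overlapped almost completely. The log2 fold change was -0.07 ± 0.09 (SE; 0.951-fold, 95% interval 0.838 to 1.08; adjusted p = 0.578), an interval that leaves out a change of 1.5-fold either way. With libraries scaled by their totals alone the sign turned (0.06, adjusted p = 0.677).

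**Figure D2:**
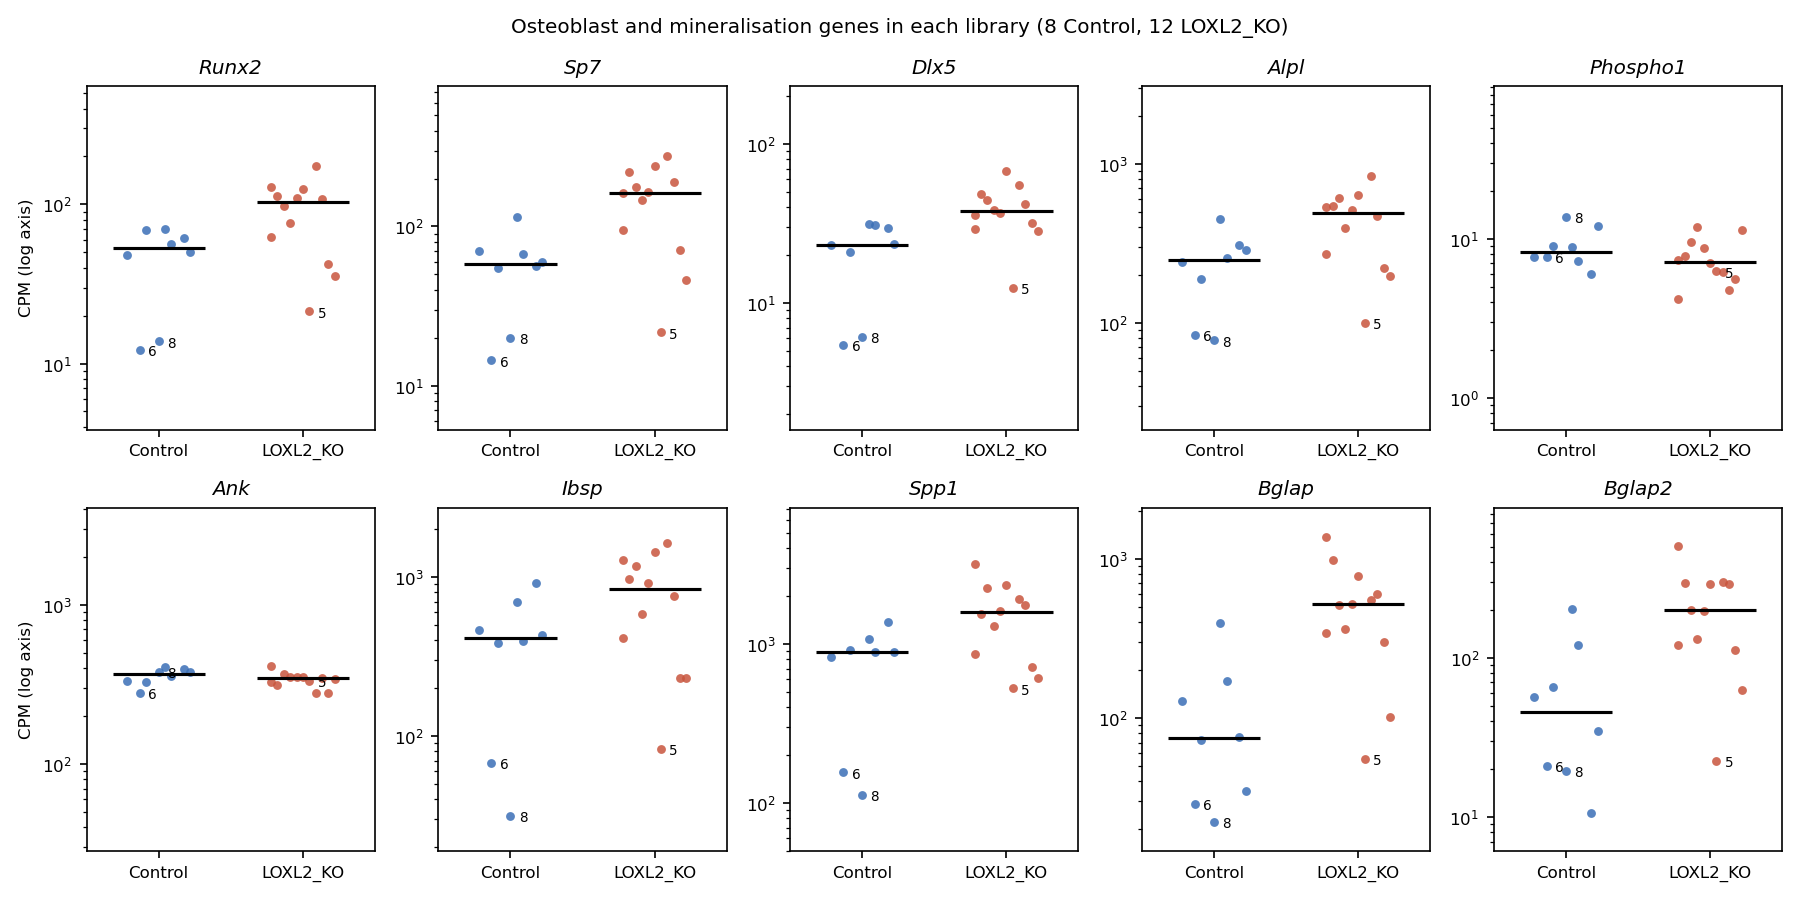
CPM of each member (y axis, log scale, the same span of orders of magnitude in each panel) in the 8 Control (blue) and 12 LOXL2_KO (red) libraries, with the group median as a bar; Control replicates 6 and 8 and LOXL2_KO replicate 5 are numbered. *Bglap* runs from 22.3 to 1370 CPM and *Ank* from 279 to 415 CPM in the same libraries.

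The genes of the mineralised matrix divided at the threshold, which is not a test of 1 gene against another. Both osteocalcin genes rose, and *Ibsp* and *Spp1* did not pass. Of the osteocalcin genes only *Bglap* was tested against *Ibsp*, as a ratio given below, and neither was tested against *Spp1*. *Ibsp* (chr5:104299171-104311469, plus strand), bone sialoprotein, which nucleates hydroxyapatite, lay at 31.5, 415 and 912 CPM in Control and at 83.3, 840 and 1640 CPM in LOXL2_KO. The groups were intermixed, with 6 LOXL2_KO libraries above the highest Control library. The log2 fold change was 0.94 ± 0.54 (SE; 1.91-fold, 95% interval 0.885 to 4.14; adjusted p = 0.209).

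*Spp1* (chr5:104435118-104441050, plus strand), osteopontin, a phosphoprotein that binds mineral and is also made by osteoclasts and macrophages, lay at 113, 889 and 1370 CPM in Control. In LOXL2_KO it lay at 525, 1580 and 3170 CPM. In 7 LOXL2_KO libraries it was above the Control maximum, and no LOXL2_KO library was below the Control minimum. Its log2 fold change was 0.99 ± 0.41 (SE; 1.99-fold, 95% interval 1.10 to 3.60; adjusted p = 0.0854). It did not pass in any alternative or with any 1 library left out (lowest adjusted p = 0.0540).

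*Bglap* (chr3:88383501-88384464, minus strand), osteocalcin, a small protein secreted by mature osteoblasts, lay at 22.3, 74.3 and 396 CPM in Control and at 55.5, 519 and 1370 CPM in LOXL2_KO. Control replicate 5 was far above the other Control libraries, the next of which was at 171 CPM. Of the 12 LOXL2_KO libraries 11 were above the Control median and 7 above Control replicate 5. *Bglap* rose by a log2 fold change of 2.22 ± 0.58 (SE; 4.65-fold, 95% interval 2.03 to 10.7; adjusted p = 0.0101), the largest difference of the 10 members. It passed with every library left out in turn, the highest log2 fold change being 2.825 without Control replicate 5 (adjusted p = 0.00195), and it passed without Control replicates 6 and 8 together (log2 fold change 1.87, adjusted p = 0.0450).

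*Bglap2* (chr3:88377736-88378699, minus strand), the neighbouring osteocalcin gene, lay at 10.6, 45.5 and 203 CPM in Control and at 22.5, 199 and 506 CPM in LOXL2_KO. Its lowest Control value was in replicate 7, a library in which *Ibsp* and *Spp1* were at their Control maximum. *Bglap2* rose by a log2 fold change of 1.67 ± 0.54 (SE; 3.18-fold, 95% interval 1.47 to 6.90; adjusted p = 0.0293). The call was lost without Control replicate 4 (adjusted p = 0.0581), 6 (0.0563) or 8 (0.0606) and without LOXL2_KO replicate 1 (0.0505). Of the 100-base stretches of *Bglap* transcripts, 56.3% occur unchanged in *Bglap2*, so reads could be divided between them. With the counts of *Bglap*, *Bglap2* and their relative *Bglap3* added, osteocalcin rose by a log2 fold change of 2.04 (adjusted p = 0.0120).

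In Control the lowest values came from few libraries. Control replicate 6 was among the 3 lowest of all 20 libraries for 9 of the 10 members, Control replicate 8 for 8 and LOXL2_KO replicate 5 for 6. At the other end, LOXL2_KO replicate 8 was among the 3 highest for 7 members, replicate 2 for 6 and replicate 1 for 5. The summed level of the members was 676 CPM in Control replicate 6 and 698 CPM in Control replicate 8, while the other Control libraries lay between 2110 and 3450 CPM. In LOXL2_KO the sum was spread more evenly, from 1180 CPM in replicate 5 to 7500 CPM in replicate 1.

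**Figure D3:**
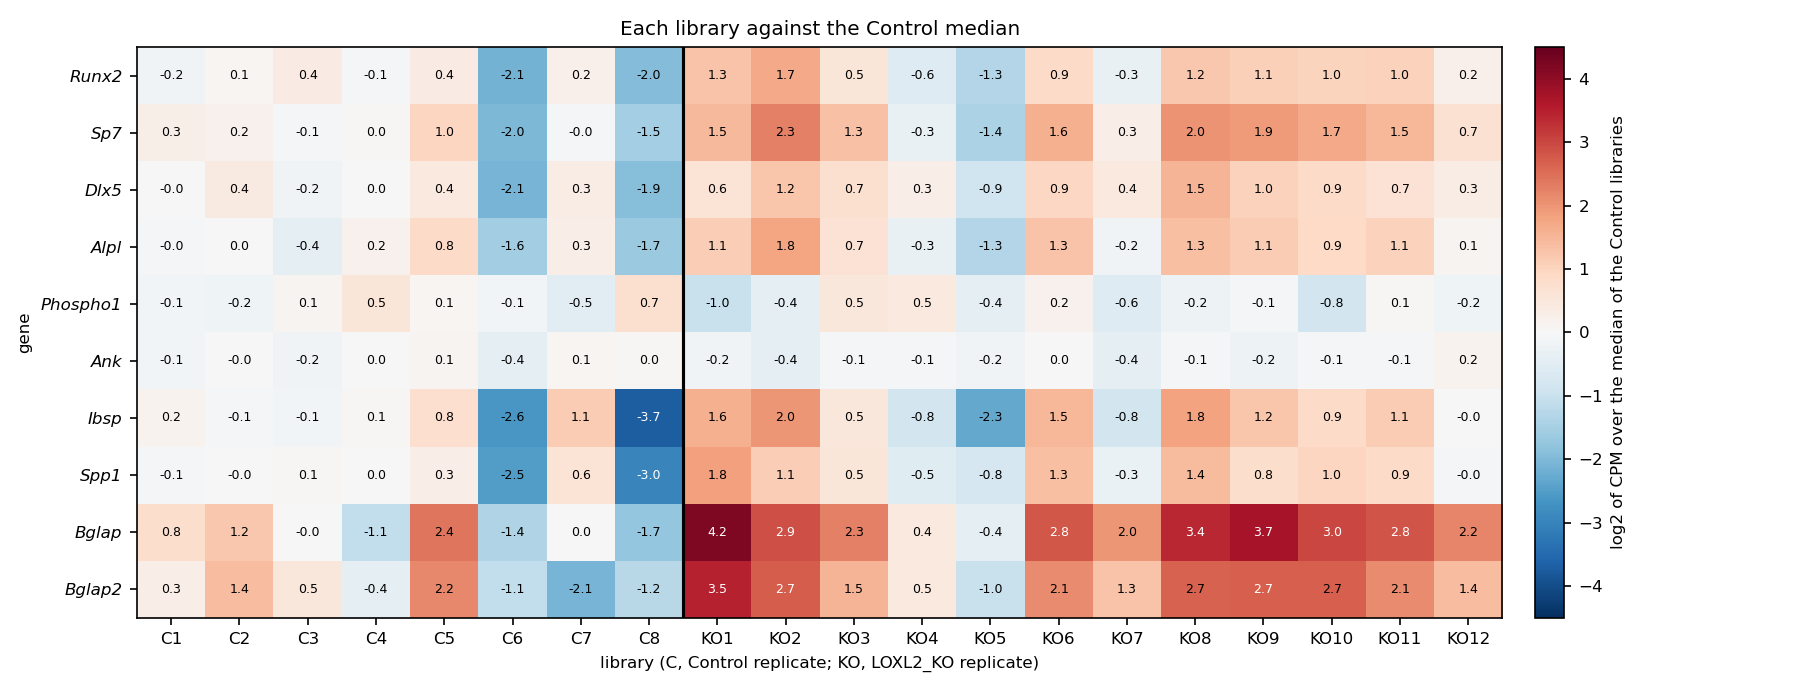
Log2 of the CPM of each member (rows) in each library (columns) over the Control median of that gene; blue is lower and red higher, and the line separates Control from LOXL2_KO. The columns of Control replicates 6 and 8 and LOXL2_KO replicate 5 are blue in most rows, and the rows of *Phospho1* and *Ank* are pale across all libraries.

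Markers of several other cell types differed between the groups, and the chondrocyte sum was also low in Control replicates 6 and 8. The summed level of 10 chondrocyte genes was 215 CPM in Control replicate 6 and 51.7 CPM in Control replicate 8, against 1470 to 3130 CPM in the other Control libraries, and 490 to 5130 CPM in LOXL2_KO. Of the 8 chondrocyte genes tested, *Col9a1* and *Col11a1* rose, so that 25.0% passed, near the share over all tested genes. *Matn1*, at the detection floor, and *Matn3* were too low to be tested. All 10 osteoclast genes rose, their sum running from 183 to 1490 CPM in Control and from 665 to 8090 CPM in LOXL2_KO. Of 5 osteocyte genes *Dmp1* and *Phex* rose, with a sum of 13.2 to 143 CPM in Control and 20.2 to 445 CPM in LOXL2_KO. The 6 macrophage genes rose (39.1 to 225 CPM in Control, 129 to 563 CPM in LOXL2_KO), and 4 of 8 skeletal muscle genes fell. The muscle sum ran from 40100 to 177000 CPM in Control and from 29700 to 80900 CPM in LOXL2_KO. The 177000 CPM was in Control replicate 8, while Control replicate 6 was at 74400 CPM. Of 3 hypertrophic chondrocyte genes only *Mmp13*, which osteoblasts also express, rose. Of 7 neutrophil genes only *Mpo* passed (14.3%), although their median log2 fold change was 2.14. The median log2 fold change was -0.715 for 4 erythroid and 0.065 for 3 adipocyte genes. The share of counts from mitochondrial genes was 15.2% to 23.1% in Control, with 23.1% in replicate 6 and 19.7% in replicate 8, and 9.06% to 18.3% in LOXL2_KO. The part of these tissues and of the mitochondrial share in the differences of the members was not tested. Without Control replicates 6 and 8, *Bglap* was the 1 member that still passed, and with LOXL2_KO replicate 5 also left out *Sp7* (adjusted p = 0.0160), *Dlx5* (0.0194) and *Bglap* (0.0164) did.

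Ratios of counts within a library do not depend on scaling and show whether members changed unequally. *Bglap* over *Ibsp* averaged -1.91 ± 1.21 on the log2 scale in Control and -0.59 ± 0.59 in LOXL2_KO (SD, n = 8 and 12), a difference of 1.32 or 2.49-fold (exact permutation test, two-sided, p = 0.00269, 0.0161 after Benjamini-Hochberg adjustment over 6 ratios). Osteocalcin thus rose relative to bone sialoprotein, in 11 of 12 LOXL2_KO libraries relative to the Control median. This ratio passed with every library left out (adjusted p from 0.00500 to 0.0456) and without Control replicates 6 and 8 (difference 1.66, adjusted p = 0.00582). By contrast *Spp1* over *Ibsp* averaged 1.07 ± 0.41 and 1.15 ± 0.61 (SD), a difference of 0.08 (exact permutation p = 0.774), and turned to -0.06 without LOXL2_KO replicate 5, whose ratio of 2.66 was the highest of all libraries.

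*Sp7* over *Runx2* averaged 0.26 ± 0.35 in Control and 0.65 ± 0.29 in LOXL2_KO (log2, SD), a difference of 0.39 (exact permutation p = 0.0144, adjusted 0.0357). The ratio was thus 1.31-fold higher in LOXL2_KO. *Alpl* over *Ank* averaged -0.80 ± 0.81 and 0.19 ± 0.91, a difference of 0.99 or 1.98-fold (exact permutation p = 0.0238, adjusted 0.0357). *Phospho1* over *Alpl* averaged -4.54 ± 1.10 and -5.73 ± 1.03, a difference of -1.20 (exact permutation p = 0.0230, adjusted 0.0357). The *Alpl* and *Ank* ratio lost its call without Control replicates 6 and 8 (difference 0.58, adjusted p = 0.231), and so did that of *Phospho1* and *Alpl* (-0.67, adjusted p = 0.231). Both calls were also lost without Control replicate 3, 6 or 8 or LOXL2_KO replicate 1, 2, 6, 8, 9, 10 or 11 (adjusted p up to 0.0931), and that of *Sp7* and *Runx2* without Control replicate 3 or 6 or LOXL2_KO replicate 2, 6, 8, 9, 10 or 11 (up to 0.0655). The *Sp7* and *Runx2* ratio also lost its call without Control replicates 6 and 8 together (difference 0.43, adjusted p = 0.0506). The ratios of *Alpl* to *Ank* and of *Phospho1* to *Alpl* share *Alpl* and are not independent. *Bglap2* over *Bglap* averaged -0.79 ± 0.92 and -1.30 ± 0.29 (difference -0.51, exact permutation p = 0.0817, adjusted 0.0981), and passed without Control replicate 7, whose ratio was -2.83 (difference -0.81, adjusted p = 0.00226).

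**Figure D4:**
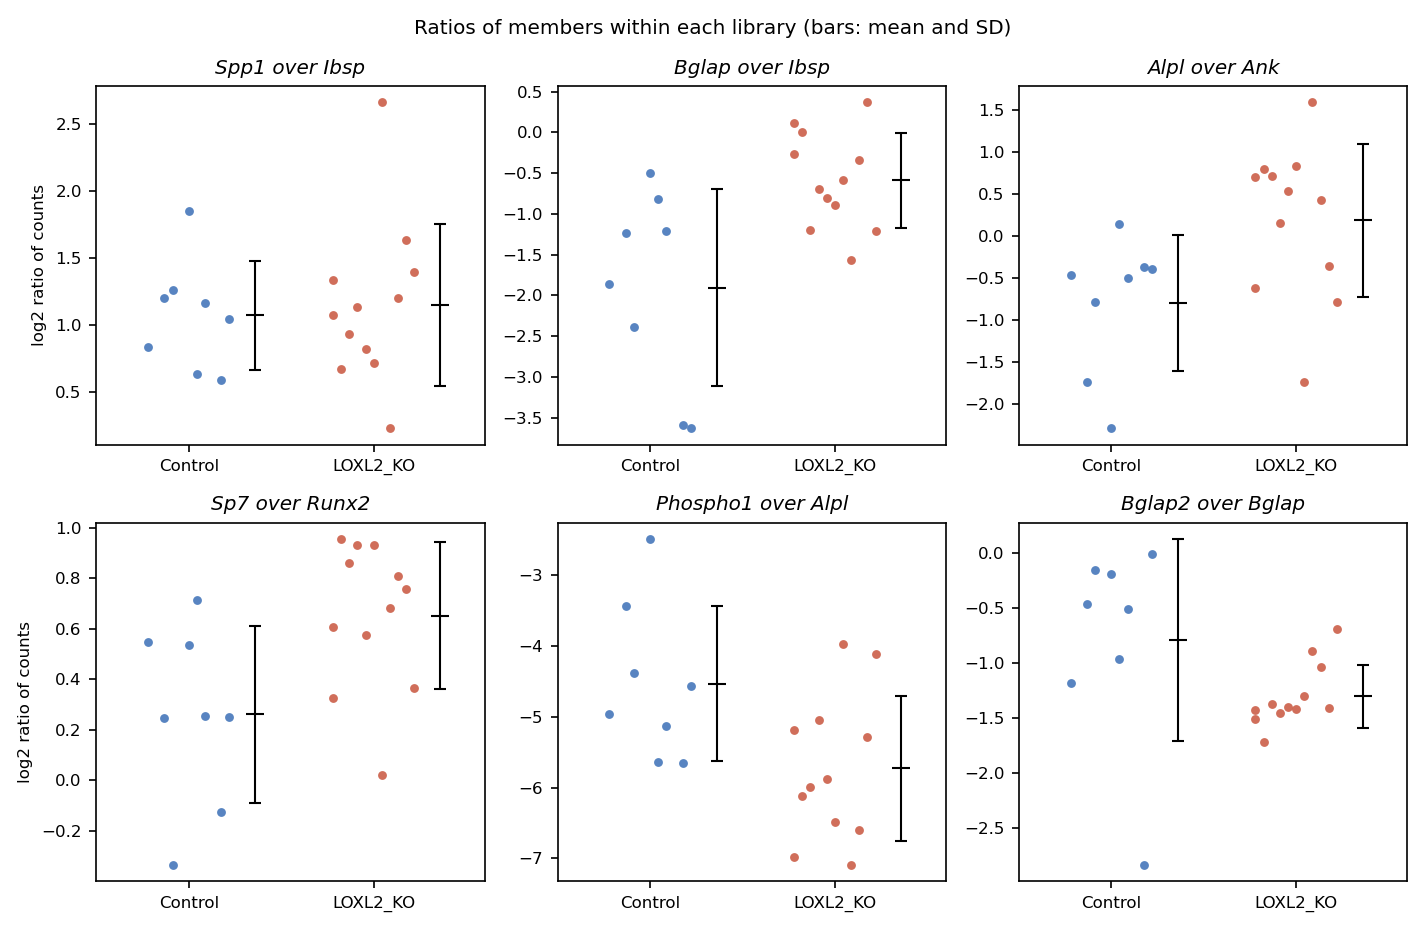
Log2 ratio of the counts of pairs of members (y axis, own scale in each panel) in each Control (blue) and LOXL2_KO (red) library, with mean and SD beside the points. *Bglap* over *Ibsp* moved up from a mean of -1.91 to -0.59, and *Spp1* over *Ibsp* had means of 1.07 and 1.15.

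Across the LOXL2_KO libraries 8 of the members varied together, and no correlation of *Ank* or *Phospho1* with them passed, with TMM scaling or with library totals alone. In this group (12 libraries), Pearson's r of log2 CPM over the 28 pairs of the 8 genes ran from 0.76 to 0.991 with a median of 0.917, and Spearman's rho from 0.72 to 0.972. All 28 passed after adjustment over the 90 relations computed (permutation test, highest adjusted p = 0.00552). Leaving out the 2 libraries farthest from the median of the gene on the x axis left r between 0.592 and 0.976. *Alpl* and *Ibsp* were the closest pair (r = 0.991, rho = 0.972, 0.976 without 2 libraries; permutation p = 1e-05, the smallest that the resampling can give). The 9 pairs with *Ank* had r from -0.10 to 0.367 and the 9 with *Phospho1* from -0.33 to 0.367, and none passed.

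In Control (8 libraries) the same 28 pairs had r from 0.375 to 0.989 with a median of 0.900, and 19 passed. These relations rested on few libraries, which were Control replicates 6 and 8 for all but the osteocalcin genes. Without the 2 farthest libraries r ran from -0.50 to 0.918 with a median of 0.446, and by rank 7 of the 28 passed. *Ibsp* and *Spp1* had the highest r (r = 0.989, and 0.918 without 2 libraries; exact permutation p = 0.000546, adjusted 0.00189), although rho was 0.786 with an adjusted p of 0.0698. *Sp7* and *Bglap* passed on both measures (r = 0.840, exact permutation p = 0.00561, adjusted 0.0144; 0.852 without 2 libraries; rho = 0.881, adjusted 0.0225). No pair with *Ank* or *Phospho1* passed in Control with TMM scaling. With library totals alone, 22 of the 28 pairs passed and so did 7 of the 9 with *Ank*, whose r then reached 0.952, so that in Control the covariation of *Ank* depended on the scaling. The libraries share dissection and tissue composition, so these values describe covariation and not regulation. Whether the correlations differ between the groups was not tested.

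**Figure D5:**
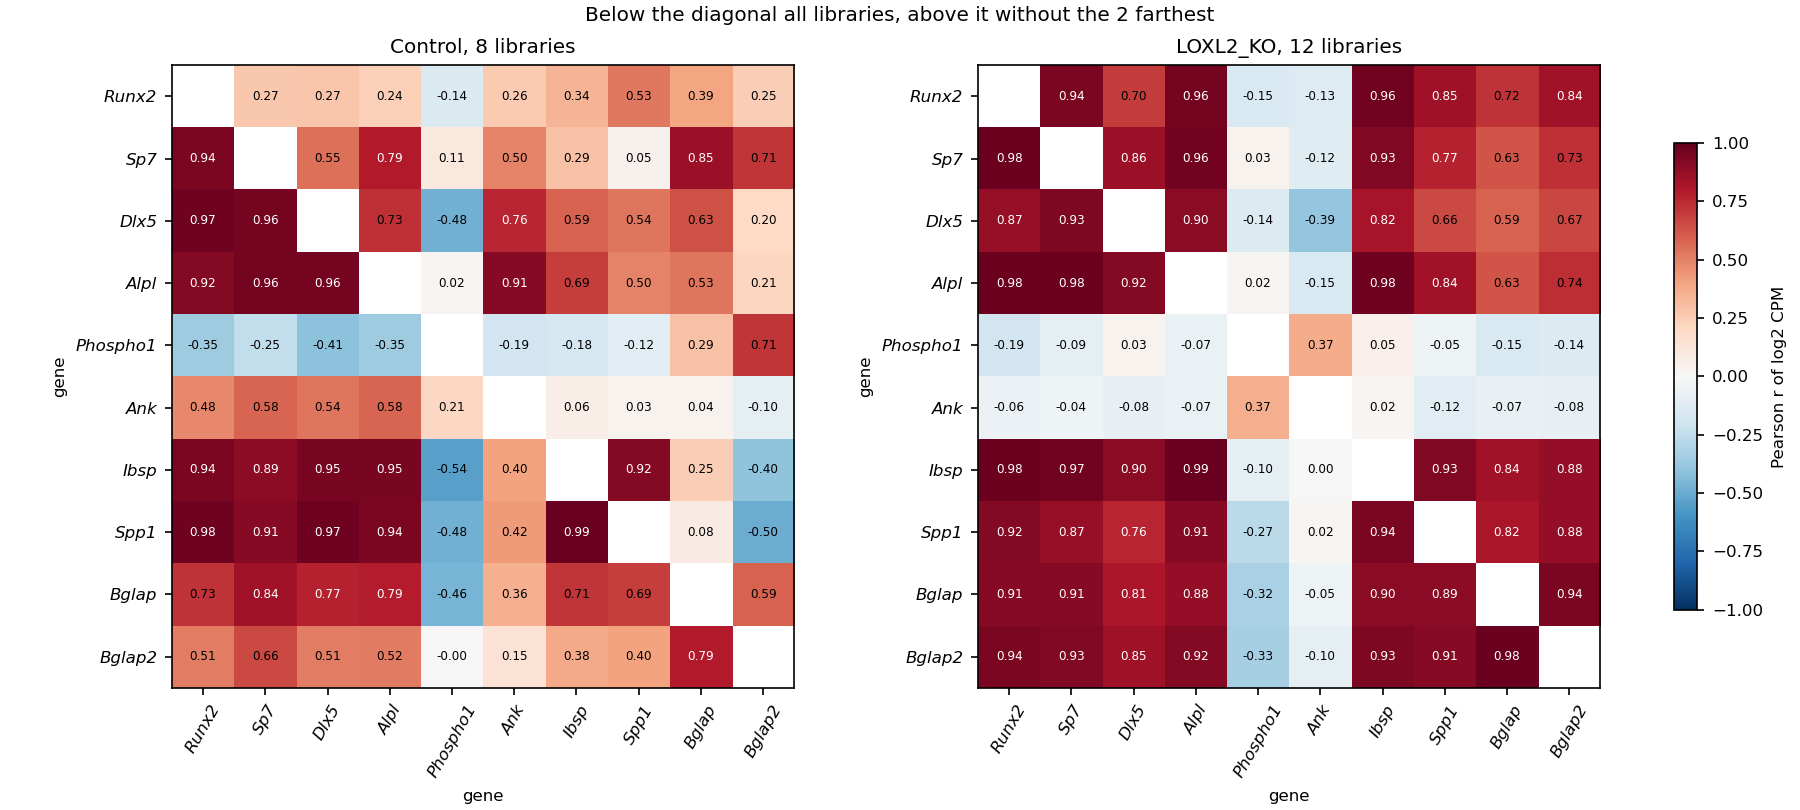
Pearson's r of log2 CPM between members within Control (left) and LOXL2_KO (right), with all libraries below the diagonal and without the 2 farthest above it. In LOXL2_KO the 8 covarying genes stay between 0.592 and 0.976 above the diagonal, in Control they fall to a median of 0.446, and the rows and columns of *Phospho1* and *Ank* are pale in LOXL2_KO.

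Compared per length of exon, the mineralised matrix genes had the highest mean levels of the members. In Control the mean levels in CPM per kilobase were 474 ± 263 for *Spp1*, 205 ± 141 for *Ibsp*, 188 ± 201 for *Bglap* and 141 ± 139 for *Bglap2* (SD, n = 8). The spreads of the last 3 overlapped one another and that of *Ank* at 98.7 ± 11.5. Then came *Alpl* at 58.4 ± 30.0, *Sp7* at 16.8 ± 9.12, *Dlx5* at 9.45 ± 4.59, *Runx2* at 5.38 ± 2.57 and *Phospho1* at 4.46 ± 1.28 CPM per kilobase. In LOXL2_KO *Spp1* stood at 941 ± 489 and *Bglap* at 873 ± 596 CPM per kilobase (SD, n = 12). The spreads of *Bglap2* at 448 ± 284 and *Ibsp* at 392 ± 248 overlapped. *Alpl* (110 ± 53.1) and *Ank* (93.9 ± 10.2) exchanged places in the order of means. These spreads are between libraries and do not compare genes within a library. The ratio of *Alpl* to *Ank* within libraries is given above.

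Likeness to other genes was measured as Pearson's r of log2 CPM over the 20 libraries, with each group centred, and is given without a test. Among the tested genes outside the list, that of the highest r was *Fgfr2* for *Runx2* (0.971), *Unc5b* for *Sp7* (0.969), *Ptgis* for *Dlx5* (0.959), *Alpl* (0.972) and *Ibsp* (0.982), *Omd* for *Spp1* (0.948), and *Lipc* for *Bglap* (0.943) and *Bglap2* (0.936). *Omd* encodes osteomodulin, a proteoglycan of bone, and *Fgfr2* a fibroblast growth factor receptor needed for cranial bone growth. *Phospho1* was closest to *Rai2* (0.850) and *Ank* to *Setd1a* (0.743), and 3032 and 1695 of the 15983 other genes were closer to them than their nearest member. For *Sp7* and *Spp1* no gene was closer than another member, *Alpl* (0.971) and *Ibsp* (0.961).

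Of 21 other genes of osteoblasts and mineralisation 20 were tested, *Abcc6* being too low, and 10 rose and 1 fell, with a median log2 fold change of 0.58. The widest differences were in the matrix: *Col1a1* and *Col1a2*, the chains of type I collagen, rose by log2 fold changes of 2.50 ± 0.45 and 2.19 ± 0.42 (SE; adjusted p = 0.00144 and 0.00204). *Col1a1* lay at 1120, 2270 and 10300 CPM (lowest, median, highest) in Control and at 3710, 18400 and 35000 CPM in LOXL2_KO. *Sparc*, osteonectin, rose by 1.47 (adjusted p = 0.00665), *Ifitm5*, a membrane protein of mineralising osteoblasts, by 2.09 (0.00548) and the osteocalcin relative *Bglap3* by 2.44 (0.00860). *Bglap3* was low, at 0, 0.431 and 1.98 CPM in Control and at 0.169, 2.93 and 7.17 CPM in LOXL2_KO. Of the 50-base stretches of *Bglap2* transcripts, 37.9% also occur in *Bglap3*, and how reads were divided between them was not tested. The collagens thus showed larger fold changes than *Ibsp* and *Spp1*, though no test compared them.

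Of 7 further factors *Dlx3*, *Dlx6* and *Twist1* rose, by log2 fold changes of 1.16, 0.81 and 1.10 (adjusted p = 0.0206, 0.0180 and 0.00607). *Twist1* is known as a restraint on *Runx2*. *Smpd3*, a sphingomyelinase needed for bone mineralisation, rose by 1.63 (adjusted p = 0.0174), and *Pth1r*, the receptor of parathyroid hormone, by 1.23 (0.0294). The latter call was lost without Control replicate 6 (adjusted p = 0.0521) or 8 (0.0505) or LOXL2_KO replicate 2 (0.0520). *Slc20a2*, a phosphate importer, was the 1 gene that fell, by 0.41 on the log2 scale (adjusted p = 0.0114), with no LOXL2_KO library above the Control maximum. *Enpp1*, which makes pyrophosphate and so acts beside *Ank*, had a log2 fold change of 0.29 (adjusted p = 0.492).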

How the data were processed

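RNA was sequenced from 20 mouse TMJ libraries, grouped by their titles. Per the labels and the study's methods, the authors had paired-end reads trimmed by the sequencing provider, aligned to mm10 and deposited raw counts per gene from featureCounts v1.5.0-p3. The aligner, annotation release, strand setting and handling of multi-mapped reads were not given in the sources used here, so counts of overlapping or near-identical genes are uncertain. Of 54532 genes 54495 matched GENCODE M21 by identifier, which gave symbols, exon lengths and coordinates.

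Counts were tested with edgeR 4.0.16 in R 4.3.3 (filterByExpr, TMM, quasi-likelihood F-test, two-sided, Benjamini-Hochberg over 15984 genes, threshold 0.05). The biological coefficient of variation was 37.3%. CPM used TMM-scaled library sizes, and log2 CPM a prior count of 2. DESeq2 1.42.0 (Wald test), the tool of the study, was an alternative. Ratios were log2 of counts with 0.5 added, compared by an exact permutation test over 125970 assignments. Correlations used all 40320 pairings in Control and 100000 resamples in LOXL2_KO. Python 3.11.15 and scipy 1.17.1 were used, and the procedure was tested on simulated data. Totals of 11153820 to 27045668 counts put a floor of 3 counts at 0.269 to 0.111 CPM, for counting error only. No 2 libraries agreed within sampling noise (smallest chi-square per degree of freedom 32.9 over 190 pairs).

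The members and gene lists were chosen with earlier results of these data known. Of the pathway list, 1 gene is not reported here and was left out of its counts. Named genes were all members, *Loxl2*, pathway genes past the threshold or among the 3 of highest mean CPM, and the closest gene to each member; *Runx2os1*, *Zfp652*, *Abi3*, *Enpp1*, *Abcc6* and the marker genes were named outside this rule. Other scalings, filters, dispersions, the replicate number as a block, summed osteocalcin counts and the omission of each library were tried, and the joint omission of Control replicates 6 and 8, with and without LOXL2_KO replicate 5, was added after seeing the data.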

Additional observations from a re-analysis of the deposited data

Results flagged for a closer look

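The sets of 8 Control values examined were 17 (the CPM of the 10 members and *Loxl2*, and the 6 ratios). Of these, 2 held a library that stood far from the rest. For normally distributed values chance marks about 1 set in 20. The CPM sets were examined without a log scale, so that rate need not hold for them. *Bglap* in Control replicate 5 was at 396 CPM, with a gap to the next library of 0.603 of the Control range. The log2 ratio of *Bglap2* over *Bglap* in Control replicate 7 was -2.83, with a gap of 0.587 of the range. Groups of 12 libraries were not examined in this way.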

How the results depend on the processing

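The replicate numbers in the titles are shared by 8 pairs of libraries, but correlations of same-numbered libraries ran from -0.36 to 0.168, so no pairing was shown. With the number as a block in 16 libraries, edgeR passed 0 members (2 at an unadjusted p under 0.05), 5 pathway genes and 1786 of all genes; 16 libraries without the block gave 1, 9 and 3280. The ratios of *Bglap* to *Ibsp* (1.197), *Alpl* to *Ank* (0.94), *Sp7* to *Runx2* (0.35) and *Phospho1* to *Alpl* (-1.09) then had an adjusted p of 0.206 each. Without Control replicates 6 and 8 together (chosen after seeing the data), 1 member, 7 pathway genes and 1703 genes passed, and the log2 ratio differences were 0.58 for *Alpl* to *Ank*, 0.43 for *Sp7* to *Runx2* (adjusted p = 0.0506) and -0.67 for *Phospho1* to *Alpl*. With LOXL2_KO replicate 5 also left out, 2336 genes passed, and the differences were 0.76 for *Alpl* to *Ank* (adjusted p = 0.0556) and -0.83 for *Phospho1* to *Alpl* (0.0903). Why calls were lost without these libraries was not tested, and no other Control libraries were left out together for comparison.

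Library totals alone moved the median log2 fold change of all genes from -0.02 to 0.12 and the split from 1918 higher and 1755 lower to 2188 and 849; the log2 fold change of *Ank* turned to 0.063, *Dlx5* lost its call (adjusted p = 0.0541), and 57 correlations passed in place of 47. DESeq2 passed 6 members and 4219 of 18931 genes (22.3%), adding *Runx2* and *Alpl*. Without a filter 2987 genes passed, and *Dlx5* lost its call (0.0599).

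With each library left out in turn, 2 to 6 members and 10 to 11 pathway genes passed, as did 2551 to 4181 genes. Members called fell to 2 without Control replicate 4, 6 or 8 or LOXL2_KO replicate 1. The log2 ratio differences ran from -0.061 (without LOXL2_KO replicate 5) to 0.19 for *Spp1* to *Ibsp*, from 0.77 to 1.16 for *Alpl* to *Ank*, from 0.31 to 0.46 for *Sp7* to *Runx2*, from -1.36 to -0.90 for *Phospho1* to *Alpl* and from -0.81 to -0.40 for *Bglap2* to *Bglap*. The log2 fold change of *Loxl2* ran from 0.50 to 0.78. Levels per kilobase of the longest transcript, in place of all exons, were 15.0 and 27.5 CPM for *Dlx5* and 93.4 and 176 CPM for *Alpl* in Control and LOXL2_KO.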
